A study of Mus musculus with 16 samples.

Results

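The genes described here are clock output factors and repressors of mouse liver: the PAR bZIP activators Dbp, Tef and Hlf, their repressor Nfil3, the E-box repressors Bhlhe40 and Bhlhe41, the nuclear receptor Rora and the deubiquitinase Usp2. They were chosen by name, and 7 of the 8 could be measured, out of 18820 genes on the arrays. The only probe set listed for Dbp also carried the symbol Sphk2 (2 symbols on 1 probe set), so no value is given for Dbp. Each of the other 7 had 1 probe set with a single symbol.

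The study hybridised liver RNA from male mice of the C57Bl/6J background, 14 to 16 weeks old, to 16 whole-transcript arrays. There were 4 groups of 4 arrays, named here by group and title number: wild type mice with food (fed WT), mice null for vanin-1 with food (fed KO), wild type mice after 24 h without food (fasted WT) and vanin-1 null mice after 24 h without food (fasted KO). All mice were housed singly on standard chow with free access to water, in light from 21:00 to 9:00 and in the dark for the rest of the day. Fasting ran from 9:00 to 9:00, so the livers of fasted mice were taken when the dark phase began, and the hour for each fed animal is not stated. The labels give no tissue restriction of the knockout and leave unsaid whether every array stands for its own animal, so the p-values cover only the spread among the arrays.

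The circadian clock of the liver is a feedback loop in which the activators BMAL1 (Arntl) and CLOCK or NPAS2 bind E-box sequences and switch on genes for their own repressors, the PER and CRY proteins. A further layer of factors carries the rhythm to metabolic genes. DBP, TEF and HLF bind D-box sequences and activate them, NFIL3 binds the same sequences and represses, BHLHE40 and BHLHE41 (DEC1 and DEC2) compete at E-boxes, and RORA activates genes such as Arntl through ROR elements. Feeding time is known to set the phase of these rhythms in liver.

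The stretches just upstream of the start sites are shown because E-boxes, D-boxes and ROR elements are the kinds of sequence these factors bind. RefSeq (GRCm38.p6) held such windows for 7 of the 8 genes, 8 windows in all, and the 250 bases before each start were searched on both strands. The motifs were the E-box CACGTG, its variant CACGTT, the D-box as TTATGNAA, the core of the ROR element as TNGGTCA and the cAMP response element TGACGTCA. N stands for any base, so the ROR letters are a loose form of the core. Among 32851 windows of the same length these occurred in 6.02%, 3.85%, 3.07%, 9.19% and 1.55%, in that order. The windows of Tef (2 start sites), Bhlhe41, Usp2 and Nfil3 are printed 5′ to 3′ on the strand of the gene, ending at the base before the start, with matches in capitals. These 4 genes are among those whose levels varied together or against each other from array to array.
Tef, window 1: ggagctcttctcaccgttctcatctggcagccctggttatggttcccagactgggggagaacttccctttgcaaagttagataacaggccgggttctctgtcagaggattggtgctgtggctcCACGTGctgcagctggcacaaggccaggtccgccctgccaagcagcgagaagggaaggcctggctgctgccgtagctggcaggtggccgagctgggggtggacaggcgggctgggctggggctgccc
Tef, window 2: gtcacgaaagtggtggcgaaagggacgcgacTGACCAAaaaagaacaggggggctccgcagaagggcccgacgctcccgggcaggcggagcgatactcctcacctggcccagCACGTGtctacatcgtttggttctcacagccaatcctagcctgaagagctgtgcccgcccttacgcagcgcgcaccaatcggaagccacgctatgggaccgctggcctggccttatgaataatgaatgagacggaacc
Bhlhe41: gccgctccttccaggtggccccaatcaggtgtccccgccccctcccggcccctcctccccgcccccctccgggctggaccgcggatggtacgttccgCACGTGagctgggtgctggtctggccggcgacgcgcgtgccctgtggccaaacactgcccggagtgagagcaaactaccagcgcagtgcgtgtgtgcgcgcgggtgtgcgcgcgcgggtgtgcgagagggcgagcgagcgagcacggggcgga
Usp2: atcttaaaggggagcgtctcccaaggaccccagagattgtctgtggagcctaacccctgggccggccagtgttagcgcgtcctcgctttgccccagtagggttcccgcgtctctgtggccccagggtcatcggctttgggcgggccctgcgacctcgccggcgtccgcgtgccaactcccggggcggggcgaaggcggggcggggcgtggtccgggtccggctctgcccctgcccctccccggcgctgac
Nfil3: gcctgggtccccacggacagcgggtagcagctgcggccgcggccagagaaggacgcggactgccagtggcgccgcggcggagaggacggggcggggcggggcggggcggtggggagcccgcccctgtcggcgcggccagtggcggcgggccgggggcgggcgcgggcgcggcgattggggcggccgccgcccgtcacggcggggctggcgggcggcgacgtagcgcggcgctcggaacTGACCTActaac

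Both Tef windows (chr15:81802423-81802672 and chr15:81811164-81811413, plus strand) held an E-box, whose 5′ end lay 127 and 138 bases before the start. The second also held a match to the loose ROR letters, as TGACCAA on the strand shown, 219 bases before the start. It has T at the open base N on the other strand, so it need not be a ROR element core. Bhlhe41 (chr6:145865421-145865670, minus strand) held an E-box 153 bases before its start. Nfil3 (chr13:52981040-52981289, minus strand) held a ROR element core, as TGACCTA, 12 bases before its start. Usp2 (chr9:44084670-44084919, plus strand) held no match to any of the motifs in this window. Of the windows not printed, that of Hlf held a cAMP response element 9 bases before the start, and those of Dbp and Rora held no match. No member's window held the D-box letters. A match describes the letters and says nothing of binding.

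Values are log2 intensities, given per array and as mean ± SD (n = 4 arrays per group). They ran from 1.26 to 14.19 over all probe sets, array medians from 5.19 to 5.29. Across genes, r between arrays of the same group was 0.989 to 0.996. Vnn1, the targeted gene, lay between 6.71 and 11.47 on the wild type arrays and between 3.67 and 4.26 on the knockout arrays, below every array median. The 8 measured hepatocyte markers averaged 12.93 to 13.13 on every array. Markers of pancreatic acinar cells (13 genes) averaged 7.99 on fasted WT 4 and at most 4.05 on each of the other 15 arrays, and acute phase genes (15) averaged 12.11 on fed KO 4 against at most 10.87 elsewhere. The fasting calls were therefore also made without fasted WT 4 and fed KO 4. The calls of Bhlhe40 in both genotypes, Bhlhe41 in knockout and Nfil3 in wild type then held, and those of Bhlhe41 in wild type (limma adjusted p = 0.0635) and Tef in knockout (0.104) were lost.

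In fasted liver the E-box repressors Bhlhe40 and Bhlhe41 were lower than in fed liver in both genotypes. The activator Tef was lower when the genotypes were averaged, and the D-box repressor Nfil3 was higher in wild type. The hour at which each fed mouse was sampled is not stated, so feeding state and hour of day cannot be told apart. Fasting response here means only the difference, fasted minus fed. Hlf and Rora did not pass the test in any fasting comparison, and neither did Usp2, which had the widest spread within groups. In wild type, 1 of the 7 genes was higher (Nfil3) and 2 lower (Bhlhe40 and Bhlhe41) at a limma adjusted p below 0.05, where 3.34% of all genes were called higher and 4.27% lower. In knockout, 0 were higher and 3 lower (Tef, Bhlhe40 and Bhlhe41), against 4.53% and 4.89% of all genes. Averaged over the genotypes, 1 was higher (Nfil3) and 3 lower (Tef, Bhlhe40 and Bhlhe41), against 8.4% and 9.88%. The median log2 difference of the 7 was -0.01 in wild type and -0.68 in knockout, beside 0.01 and 0.02 over all genes.

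**Figure D1:**
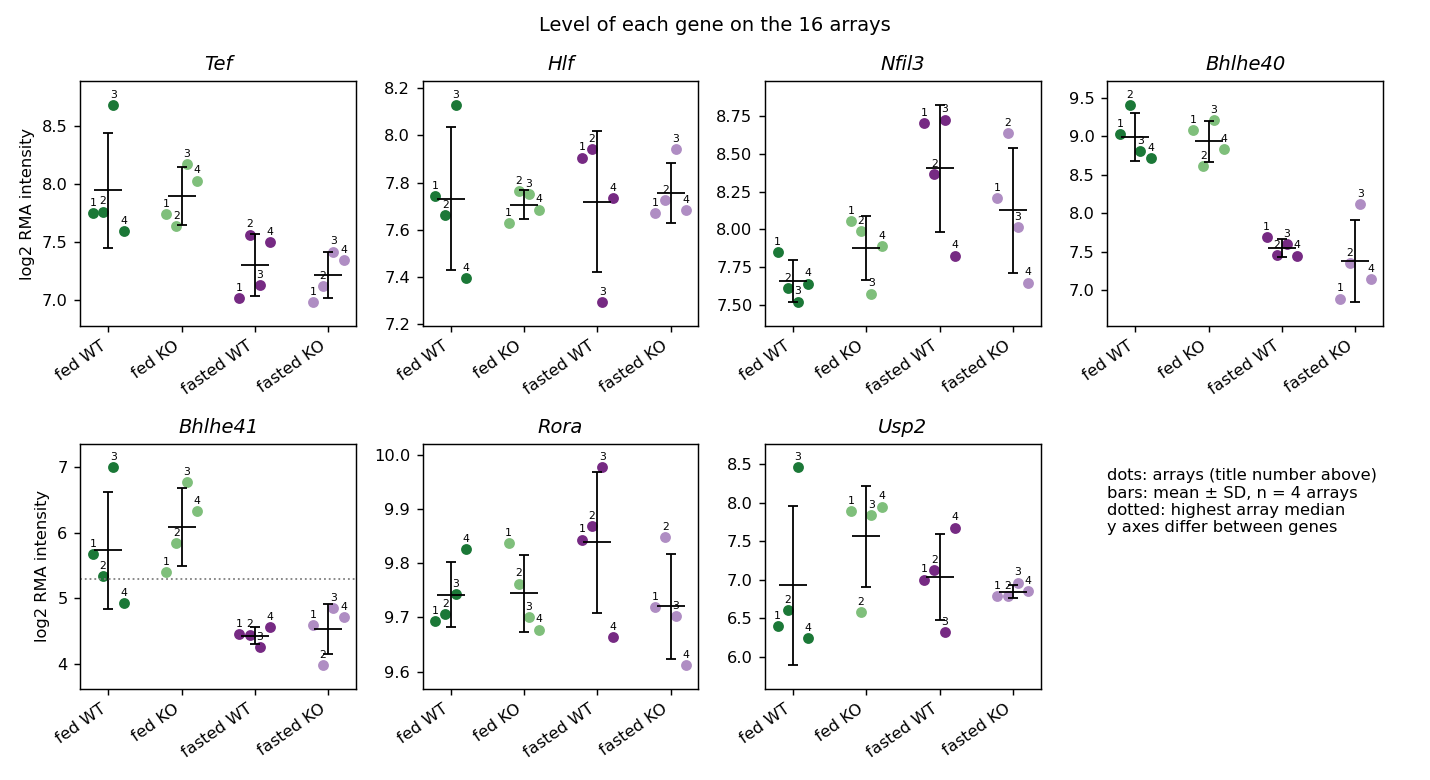
Level of each of the 7 measured genes on the 16 arrays (y axes, log2 RMA intensity, scaled for each gene; x axes, group). Points are arrays with their title number, bars are mean ± SD of 4 arrays, and the dotted line in the Bhlhe41 panel is the highest array median. The fasted arrays lie below all fed arrays for Tef, Bhlhe40 and Bhlhe41 within each genotype, and fed WT 3 stands above the other fed WT arrays for Tef, Bhlhe41 and Usp2.

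Bhlhe40, which encodes the repressor DEC1, gave the clearest fasting response. It read 9.03, 9.41, 8.81 and 8.71 on fed WT arrays 1 to 4, and 7.69, 7.46, 7.60 and 7.45 on fasted WT arrays 1 to 4. It read 9.08, 8.62, 9.21 and 8.83 on the fed KO arrays, and 6.89, 7.35, 8.12 and 7.14 on the fasted KO arrays. No fasted array reached the lowest fed array of its genotype, and fasted KO 3 was the highest of the fasted arrays. In wild type it fell from 8.99 ± 0.31 to 7.55 ± 0.12, 2.71-fold (log2 difference -1.44, SE 0.21, limma adjusted p = 0.000596). In knockout it fell from 8.94 ± 0.26 to 7.38 ± 0.53, 2.95-fold (log2 difference -1.56, SE 0.21, limma adjusted p = 0.000170). The order of the group means was fed WT, fed KO, fasted WT, fasted KO. Within the fed and within the fasted conditions the genotypes overlapped, so only the step from fed to fasted exceeded the spread. This was the gene whose call held in each of the 31 other settings run for each genotype, with adjusted p up to 0.00335 in wild type and 0.00184 in knockout.

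Bhlhe41, encoding the related repressor DEC2, fell as well but from a low and variable fed level. The fed WT arrays read 5.67, 5.34, 6.99 and 4.93, and the fasted WT arrays 4.46, 4.45, 4.26 and 4.56. The fed KO arrays read 5.40, 5.84, 6.77 and 6.32, and the fasted KO arrays 4.59, 3.99, 4.85 and 4.71. The fasted values all lay below the array medians, and every fed array lay above every fasted array. The fall was at least 2.46-fold in wild type, from 5.73 ± 0.89 to 4.43 ± 0.13 (log2 difference -1.30, SE 0.35, limma adjusted p = 0.0295). In knockout it was at least 2.93-fold, from 6.08 ± 0.60 to 4.53 ± 0.38 (log2 difference -1.55, SE 0.35, limma adjusted p = 0.00853). Both folds may be understated because the fasted means lay under the highest array median, where arrays give little signal over background. Their intervals also reach smaller falls. The fed groups spread more than the fasted ones, and fed WT 3 was the highest array of all. Without fed WT 3 the wild type log2 difference was -0.88, no longer called (limma adjusted p = 0.0629). Leaving out fed WT 1, fasted WT 2, fasted WT 3 or fasted WT 4 also ended the wild type call, with adjusted p from 0.0556 to 0.0741, as did a robust variance prior (0.0579), only the groups compared (0.0694), every probe set tested (0.0655) and leaving out the 3 arrays named with a final 2, which are fed WT 2, fasted KO 1 and fed KO 4 (0.0514). Averaged over the genotypes (log2 difference -1.43, SE 0.25, limma adjusted p = 0.000570) the call held in each of the 29 other settings run.

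Tef, the PAR bZIP activator with E-boxes in both windows above, moved down by a smaller step. The fed WT arrays read 7.75, 7.76, 8.69 and 7.60, and the fasted WT arrays 7.02, 7.56, 7.13 and 7.50. The fed KO arrays read 7.74, 7.63, 8.18 and 8.03, and the fasted KO arrays 6.98, 7.12, 7.42 and 7.34. Fed and fasted arrays did not overlap in either genotype, but fed WT 4 and fasted WT 2 were separated by little. The wild type difference, from 7.95 ± 0.50 to 7.30 ± 0.27, missed the threshold (log2 difference -0.65, SE 0.20, limma adjusted p = 0.0639), and was -0.40 without fed WT 3. In knockout Tef fell 1.60-fold, from 7.90 ± 0.25 to 7.21 ± 0.20 (log2 difference -0.68, SE 0.20, limma adjusted p = 0.0435). That call was lost without any 1 of fed KO 1, 3 and 4, fasted KO 1, 2 and 4, or fasted WT 3, with adjusted p from 0.0501 to 0.133. It was also lost with the position number described next as a block (0.0526), with every probe set tested (0.0809) and without fed WT 2, fasted KO 1 and fed KO 4 together (0.247). Averaged over the genotypes Tef fell 1.58-fold (log2 difference -0.66, SE 0.14, limma adjusted p = 0.00348), a call that held in each of the 30 other settings run. Array names carry a position number of 5 or 7, each on 8 arrays, and the averaged log2 difference of Tef was -0.95 (limma adjusted p = 0.0220) within 5 and -0.37 (0.0996) within 7.

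Bhlhe40, Bhlhe41 and Tef were thus the 3 of 7 genes whose fed and fasted arrays did not overlap, in wild type and again in knockout. Over all genes the arrays did not overlap for 12.4% in wild type and 17% in knockout.

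Hlf, another PAR bZIP activator, showed no such step. It read 7.74, 7.66, 8.13 and 7.39 in fed WT and 7.91, 7.94, 7.29 and 7.74 in fasted WT. It read 7.63, 7.76, 7.75 and 7.69 in fed KO and 7.67, 7.73, 7.94 and 7.68 in fasted KO. The groups overlapped throughout, and their means lay between 7.71 and 7.76. The fasting log2 difference was -0.01 in wild type (95% confidence interval -0.32 to 0.29, limma adjusted p = 0.974) and 0.05 in knockout (-0.26 to 0.35, 0.889). Tef and Hlf were measured by different probe sets and their responses were not tested against each other.

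Nfil3 (E4BP4), which represses through the D-box, was higher in fasted wild type liver. The fed WT arrays read 7.85, 7.61, 7.52 and 7.64, and the fasted WT arrays 8.70, 8.37, 8.73 and 7.83. Fasted WT 4, the array with the acinar markers, was the low one and overlapped fed WT 1, while the other 3 fasted WT arrays lay above every fed array. Nfil3 rose 1.68-fold in wild type, from 7.66 ± 0.14 to 8.41 ± 0.42 (log2 difference 0.75, SE 0.20, limma adjusted p = 0.0293). Without fasted WT 4 the log2 difference was 0.94 (limma adjusted p = 0.00662). Without any 1 of fed WT 2, 3 and 4 or fasted WT 1, 2 and 3 the adjusted p lay between 0.0567 and 0.0903. In knockout it read 8.06, 7.99, 7.57 and 7.89 fed and 8.21, 8.64, 8.01 and 7.65 fasted, which overlapped. The knockout log2 difference was 0.25 (95% confidence interval -0.17 to 0.67, limma adjusted p = 0.512). The responses of the genotypes differed by -0.50 (SE 0.28, limma adjusted p = 0.948), so the response was not shown to depend on vanin-1. Averaged over the genotypes Nfil3 rose by 0.50 (SE 0.14, limma adjusted p = 0.0197), which was 0.66 within position 5 (0.0138) and 0.34 within position 7 (0.434). Without fed WT 2, fasted KO 1 and fed KO 4 together the averaged rise was 0.48 and was not called (limma adjusted p = 0.0868).

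Rora, the receptor that activates through ROR elements, was the steadiest of the 7. It read 9.69, 9.71, 9.74 and 9.83 in fed WT, and 9.84, 9.87, 9.98 and 9.66 in fasted WT. It read 9.84, 9.76, 9.70 and 9.68 in fed KO, and 9.72, 9.85, 9.70 and 9.61 in fasted KO. All 16 values lay between 9.61 and 9.98, and the groups overlapped. The fasting log2 difference was 0.10 in wild type (95% confidence interval -0.07 to 0.26, limma adjusted p = 0.528) and -0.02 in knockout (-0.19 to 0.14, 0.899). The intervals reach no further than 0.26 from 0 in either genotype.

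Usp2, which encodes a ubiquitin-specific protease with a strong daily rhythm in liver, had the widest spread. The fed WT arrays read 6.40, 6.60, 8.45 and 6.25, so that fed WT 3 stood alone above the rest. The fed KO arrays read 7.89, 6.59, 7.84 and 7.95, so that here fed KO 2 stood alone below. The fasted WT arrays read 7.001, 7.13, 6.32 and 7.67 and the fasted KO arrays 6.79, 6.79, 6.96 and 6.85, the tightest of the 4 groups. The fasting log2 difference was 0.10 in wild type (95% confidence interval -0.75 to 0.96, limma adjusted p = 0.921) and -0.72 in knockout (-1.57 to 0.14, 0.327). In wild type its sign hung on single arrays, at 0.61 without fed WT 3 and -0.12 without fasted WT 4. Within position 5 the wild type difference was -0.76 and within position 7 it was 0.97, neither of them called.

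Loss of vanin-1 changed none of the 7 genes at the threshold. In fed liver 0 of 7 were called and 0 reached an unadjusted p below 0.05, where limma called 0.00531% of all genes and 1084 of 18820 reached that unadjusted p. In fasted liver 0 of 7 were called and 0 reached it unadjusted, against 0.0159% called and 1033 unadjusted over all genes. The log2 differences, knockout minus wild type, ran from -0.05 to 0.64 in fed and from -0.28 to 0.10 in fasted liver, with the highest for fed Usp2 (95% confidence interval -0.22 to 1.50, limma adjusted p = 0.892). For Bhlhe40 the intervals were -0.50 to 0.39 fed and -0.62 to 0.27 fasted. The difference between the fasting responses of the genotypes gave 0 calls among the 7 and 0% of all genes (limma), with 0 of 7 and 924 of all genes at an unadjusted p below 0.05. The widest such difference was that of Usp2, at -0.82 (95% confidence interval -2.04 to 0.39). A 2-fold higher level in knockout lies inside the intervals of fed Usp2 and fed Bhlhe41 (-0.39 to 1.09), and a 2-fold lower level inside that of fasted Usp2 (-1.04 to 0.67). Leaving out 1 array moved the fed Usp2 difference to between 0.41 (without fed WT 4) and 1.15 (without fed WT 3), with 0.96 without fed KO 2, and its difference of responses to as far as -1.33 (without fed WT 3). It moved that of fed Bhlhe41 from 0.35 to between 0.0825 (without fed WT 4) and 0.77 (without fed WT 3), and none of these was called.

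**Figure D2:**
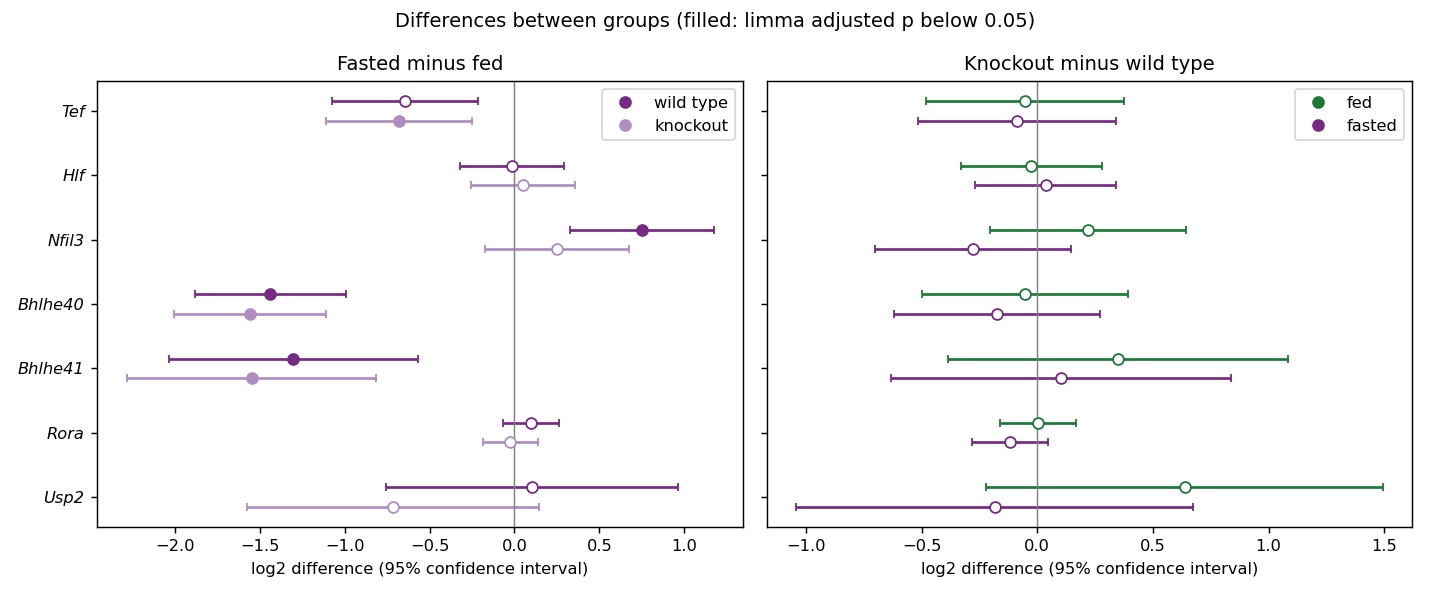
Log2 differences with 95% confidence intervals for the 7 genes, fasted minus fed in each genotype (left) and knockout minus wild type in each feeding state (right). Filled points passed a limma adjusted p below 0.05. The falls of Bhlhe40 and Bhlhe41 and the fall of Tef in knockout are filled, as is the rise of Nfil3 in wild type, and no point on the right is filled.

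Array by array, the fed groups were not uniform. Fed WT 3 differed from the mean of the other fed WT arrays by 0.99 for Tef, 1.68 for Bhlhe41, 2.04 for Usp2 and 0.53 for Hlf, all upward and outside the range of the others. Its Bhlhe40 (-0.24) and Rora (0.00) lay within that range, and its Nfil3 lay just below it (-0.18). Of the 16 core clock genes on the same array, 10 lay outside the range of the other fed WT arrays and 6 within it. In a group this small, any array is often the highest or lowest for a gene by chance alone. No such share over all genes is given here, so the count by itself does not set fed WT 3 apart. Per1 (1.01), Per2 (1.62), Per3 (1.25), Cry2 (0.61) and Ciart (1.91), all repressors of the loop, were higher, as were Nr1d2 (0.45) and Arntl2 (0.60), a paralogue of Arntl. The activators Arntl (-1.52), Npas2 (-1.63) and Clock (-0.24) were lower. This array was singled out after its values were seen.

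Fed KO 3 and fed KO 4 showed a like pattern beside fed KO 1 and fed KO 2 for some of these genes. Arntl read 7.82, 7.55, 6.76 and 5.87 on fed KO arrays 1 to 4, and Npas2 read 7.36, 6.91, 5.85 and 4.73. Per3 read 6.10, 6.03, 7.44 and 7.49, and Per2 read 6.80, 6.35, 7.57 and 7.67. Tef and Bhlhe41 were also higher on fed KO 3 and 4 than on fed KO 1 and 2, while Usp2 was high on fed KO 1 as well. Other genes that were high on fed WT 3 did not follow. On fed KO arrays 1 to 4, Per1 read 7.44, 6.66, 7.15 and 7.16, and Cry2 read 8.04, 8.00, 8.12 and 8.04. Hlf read 7.63, 7.76, 7.75 and 7.69. Fed KO 4 also carried the high acute phase genes, and fed KO 3 did not. The cause of these patterns was not tested.

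**Figure D3:**
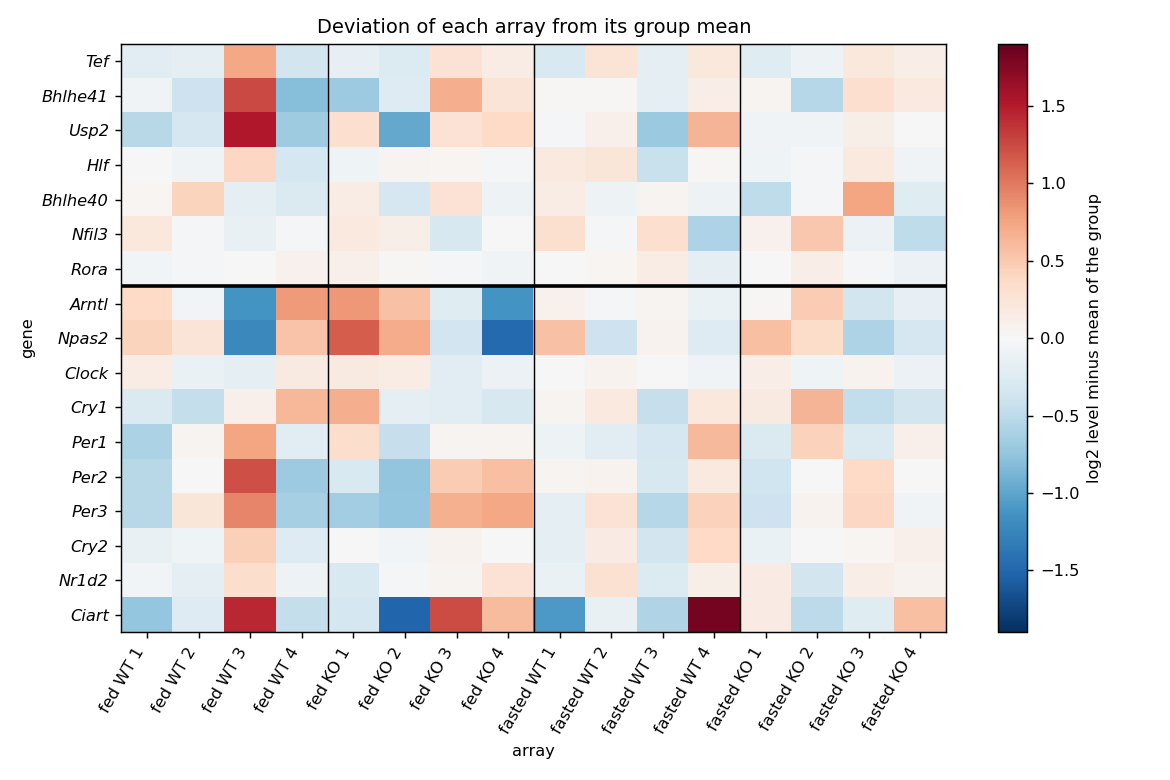
Deviation of each array (columns) from the mean of its group (log2, colour) for the 7 genes (above the black line) and 10 core clock genes (below it). Fed WT 3 is high for Tef, Bhlhe41, Usp2, Per2, Per3 and Ciart and low for Arntl and Npas2, and the fasted arrays vary less for Arntl.

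To see which of the 7 genes varied together within groups, the deviations from the group means were correlated for all 21 pairs over the 16 arrays, with arrays permuted within groups (100000 draws, two-sided). Tef and Usp2 gave r = 0.84 (permutation p = 0.0059, adjusted over the 21 pairs 0.031) and rho = 0.76 (permutation p = 0.0088, adjusted 0.060), and deviated the same way on 15 of 16 arrays. Tef and Bhlhe41 gave r = 0.84 (permutation p = 0.0026, adjusted 0.031) and rho = 0.68 (permutation p = 0.013, adjusted 0.060), the same way on 14 of 16. With the deviations of the 2 arrays farthest from the median of Tef (fed WT 3 and fasted KO 1) dropped, r was 0.72 and 0.75. The group means still included those 2 arrays, so these values are not free of them. With fed WT 3 left out of the group means as well, r was 0.62 and 0.64. Neither pair was then called (permutation adjusted p = 0.16 and 0.094). The strength of these relations thus rested partly on that array.

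Nfil3 and Rora deviated together, at r = 0.80 (permutation p = 0.0059, adjusted 0.031) and rho = 0.67 (permutation p = 0.018, adjusted 0.062). With the deviations of fasted WT 1 and 3 dropped, but both arrays still in the group means, r was 0.80. Without fasted WT 4, the lowest array for both within its group, r was 0.68 (permutation adjusted p = 0.11). Nfil3 ran against Tef, at r = -0.55 (permutation p = 0.0098, adjusted 0.034) and rho = -0.58 (permutation p = 0.026, adjusted 0.068), deviating the opposite way on 13 of 16 arrays. It also ran against Bhlhe41, at r = -0.47 (permutation p = 0.0075, adjusted 0.032) and rho = -0.60 (permutation p = 0.0078, adjusted 0.060). These calls by r held in 8 (with Tef) and 10 (with Bhlhe41) of 19 other settings, against 12 to 17 for the other called pairs. Hlf and Bhlhe41 gave r = 0.65 (permutation p = 0.0042, adjusted 0.031) and rho = 0.53 (permutation p = 0.032, adjusted 0.074), and r = 0.40 without fed WT 3 (permutation adjusted p = 0.094). In all, 6 of 21 pairs were called by r and 0 by rho. Bhlhe40, the gene with the clearest fasting response, was in none of the called pairs, with r between -0.02 and 0.17 against the other 6 genes.

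**Figure D4:**
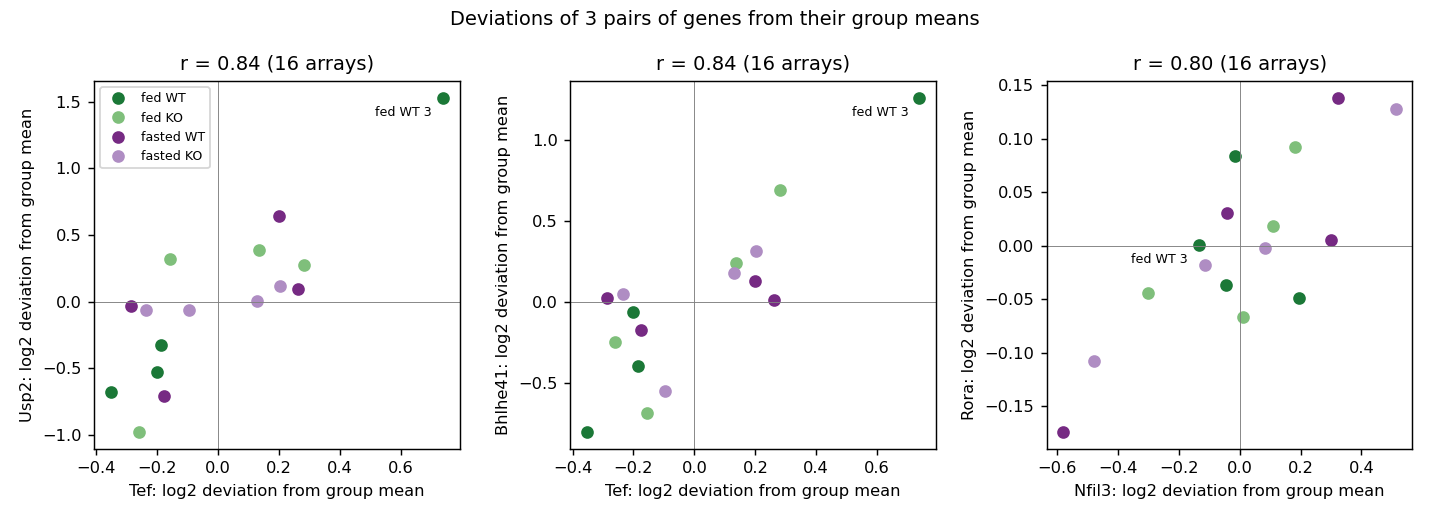
Log2 deviations from the group mean on the 16 arrays for Usp2 against Tef, Bhlhe41 against Tef, and Rora against Nfil3, coloured by group, with Pearson's r above each panel. Fed WT 3 is the far upper right point in the panels of Tef, and lies near the middle in that of Nfil3 and Rora.

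The core clock genes gave the setting for these changes. Of 16 measured, 1 rose (Per1) and 1 fell (Nr1d2) in fasted wild type, 0 rose and 1 fell (Cry2) in fasted knockout, and 4 rose and 3 fell averaged over the genotypes, all by limma. Their median log2 difference was 0.04 averaged, beside 0.02 over all genes. Averaged over the genotypes, the activator genes Npas2 (1.17, limma adjusted p = 0.0228), Arntl (1.03, 0.0131) and Clock (0.24, 0.0270) were higher in fasted liver. None of these activator genes was called in either genotype alone. Arntl and Npas2 were lowest on fed WT 3 and fed KO 4, and no result for them without those arrays is given here. The values that follow are also averages over the genotypes. Per1, a repressor gene that also responds to glucocorticoid and cAMP signals, rose by 0.88 (0.00274), whereas Per3 (-1.20, 0.00378), Nr1d2 (-0.58, 0.00108), which encodes REV-ERBβ, and Cry2 (-0.52, 0.00210) fell. Per2 (-0.44) and Ciart (-0.82) did not pass the test. Array by array, Arntl on the fed WT arrays read 7.35, 6.92, 5.83 and 7.78 against 8.26, 8.17, 8.24 and 8.06 on the fasted WT arrays, so each fasted WT array was higher than each fed WT array. In fasted KO it read 7.87, 8.33, 7.49 and 7.69, overlapping fed KO 1 and 2.

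**Figure D5:**
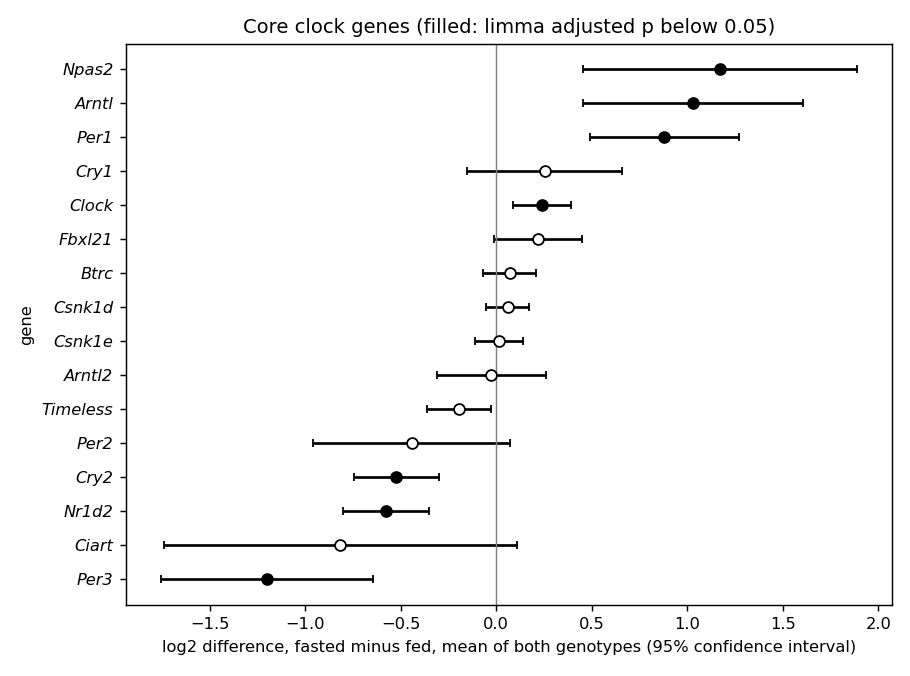
Log2 differences with 95% confidence intervals, fasted minus fed averaged over the genotypes, for the 16 measured core clock genes. Filled points passed a limma adjusted p below 0.05. Npas2, Arntl, Per1 and Clock are filled on the right of 0, and Per3, Nr1d2 and Cry2 on the left.

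Of 17 measured genes named as targets of the PAR bZIP factors or carriers of D-boxes, 3 rose and 0 fell in fasted wild type and 1 rose and 0 fell in fasted knockout by limma. Averaged over the genotypes 4 rose and 1 fell, with a median log2 difference of 0.12 beside 0.02 over all genes. Fgf21, a fasting hormone of the liver, rose by 1.84 (limma adjusted p = 1.78e-08), the drug-metabolising enzyme gene Cyp2b10 by 1.29 (0.0477) and Per1 by 0.88, and Per3 fell by 1.20. These lists share genes, and Per1 stands in 3 of them. Of 29 other rhythmic output genes, 11 rose and 4 fell averaged over the genotypes, with a median of 0.29. They included the sialyltransferase gene St3gal5 (1.20), Slc45a3 (1.19) and the sterol regulator Insig2 (0.97) upward, and Inmt (-0.90), Gsta3 (-0.68) and Tspan4 (-0.61) downward. Of 19 genes that glucocorticoids or cAMP induce, 10 rose in fasted wild type, 2 in fasted knockout and 9 averaged, and 0 fell. Gadd45b (3.09), Igfbp1 (2.30), which encodes an IGF-binding protein, and the gluconeogenic coactivator gene Ppargc1a (1.16) led them. The difference of the responses between genotypes was called for 0 of these 19.

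In bulk liver, fewer cells of a type and less RNA per cell cannot be told apart. Hepatocyte markers (8 measured) gave 1 gene called lower averaged over the genotypes. Of 13 Kupffer cell and macrophage markers 5 fell, with list means of 8.53 to 9.29 on the fed and 8.10 to 8.81 on the fasted arrays, and of 10 stellate cell and fibroblast markers 6 fell, with list means of 7.60 to 7.99 and 7.38 to 7.66. Endothelial markers gave 1 lower of 10 and lymphocyte markers 1 lower of 11, most of the latter under the array median. Over all genes 9.88% were called lower averaged over the genotypes, so the counts of the hepatocyte, endothelial and lymphocyte lists lay near that share. Bhlhe40, Bhlhe41 and Tef were lower in the fasted groups. So were the Kupffer cell and macrophage list and the stellate cell and fibroblast list, with median log2 differences of -0.32 and -0.34 averaged over the genotypes. The medians of the hepatocyte, endothelial and lymphocyte lists were -0.0076, -0.0087 and -0.0002. Whether the genes and markers vary together from array to array was not tested, nor was the part of cell makeup in the differences.

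The genes most alike in level to each of the 7 were found by Pearson's r over the 16 arrays among 9224 genes above the median level, as a description in which fed and fasted groups both count. For Tef these were Per3 (0.93), Cry2 (0.93) and Map2k6 (0.91), and for Usp2 Kcnk5 (0.89), Per2 (0.86) and Syde2 (0.84). For Bhlhe40 they were Insig1 (0.95), Lss (0.95) and Sc5d (0.95), and after removing group means these fell to 0.61, 0.59 and 0.56. For Bhlhe41 they were Tbc1d10a (0.92), Ttc7 (0.92) and Fkbp11 (0.91). For Nfil3 they were C9orf72 (0.88), Tnfrsf1b (0.88) and Pnrc1 (0.86), for Rora Irf2bp2 (0.83), Itih2 (0.81) and Zfp189 (0.73), and for Hlf Lrrc28 (0.85), Atmin (0.85) and Naa60 (0.82). After removing group means r was 0.85 for Tef with Per3 and with Cry2, 0.93 for Usp2 with Kcnk5 and 0.88 for Usp2 with Per2.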

How the data were processed

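The authors deposited log2 intensities, which came from RMA per the submitters' processing notes. Those notes name no version. The 35556 probe sets were named through a platform table, and the 21218 with 1 symbol were kept, with the probe set of highest mean over 16 arrays for each gene (18820 genes, no filter on dim genes).

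Group means were fitted to all 16 arrays with limma 3.58.1 in R 4.3.3 (12 residual and 4.66 prior degrees of freedom). Tests were two-sided, with Benjamini-Hochberg adjustment over all genes and calls below 0.05. The background step of RMA can understate differences of dim genes. Python 3.11.15, numpy 2.4.6 and scipy 1.17.1 gave the correlations and the motif search. The procedure was tested on simulated arrays.

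The genes and lists were chosen with earlier results of these data known. Named were the 7 measured genes, called genes of the core clock list, up to 3 called genes per direction of each other list by size, and the 3 genes most alike in level to each of the 7. Arntl on single arrays, Npas2, Per1, Per2, Per3, Cry2 and Ciart on fed arrays and the array fed WT 3 were picked out after their values were seen where this rule does not cover them.

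Alternatives were other normalisations, a filter, probe set rules, variance priors, array weights, subsets of groups and arrays, blocks and a stricter threshold. The arrays left out by name ending were fed WT 2, fasted KO 1 and fed KO 4, and what the ending 2 means is not known here. The look at fed WT 3 against the other fed WT arrays and the correlations without it were added after seeing the data.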

Additional observations from a re-analysis of the deposited data

Results flagged for a closer look

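Dixon's criterion at the 95% level was applied to the 28 sets of 4 arrays (7 genes in 4 groups), and chance alone marks about 1 in 20 such sets. It marked 3 values.

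Tef on fed WT 3 read 8.69, while the other fed WT arrays lay between 7.60 and 7.76. Usp2 on fed WT 3 read 8.45, while the others lay between 6.25 and 6.60. Usp2 on fed KO 2 read 6.59, while the other fed KO arrays lay between 7.84 and 7.95.

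On fed KO 2, Ciart (5.78) and Per3 (6.03) were the lowest of the fed KO arrays as well, and Arntl (7.55) came next after fed KO 1 (7.82). Fed KO 1 had nearly the same Per3 (6.10) but a high Usp2 (7.89).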

How the results depend on the processing

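The labels do not say whether the replicate numbers in the titles pair the samples. Over 24 pairs of same-numbered arrays the deviations correlated at -0.22 to 0.21, 4 of them above 0.1, and 0 arrays correlated best with their own number. No pairing showed in the values, which cannot exclude one in the design. With the replicate block limma called 4 of the 7 genes in wild type, 3 in knockout and 4 averaged, and 5 correlated pairs, and Tef gained its wild type call. Of the 7 genes, 3 were called in each genotype, but only Bhlhe40 remained in wild type with every probe set tested (1 call), without the 3 arrays whose name ends in 2 (1) or at an adjusted p below 0.01 (1), and in knockout without those 3 arrays (1). Leaving out 1 array gave 1 to 3 calls in wild type, 2 to 3 in knockout and 4 averaged. The 6 correlated pairs became 0 without fasted WT 4 and fed KO 4 and 2 with median centring, and 1 to 8 without 1 array. Genotype comparisons gave 0 calls among the 7 in each setting.

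Differences near 0 changed sign. With median centring, Hlf was 0.0003 in wild type fasting (0.0199 by quantile, 0.0077 by loess normalisation) and 0.0180 for knockout in fed liver, and Rora for knockout in fed liver was -0.0135 by quantile and -0.0011 by loess normalisation. Array weights gave Usp2 -0.0038 in wild type fasting, Hlf -0.0012 for knockout in fasted liver, and differences of responses of 0.0410 for Tef and 0.0280 for Bhlhe41. Without the 3 arrays ending in 2, Usp2 was -0.0031 in wild type fasting, Bhlhe40 0.12 for knockout in fed liver and the difference of responses of Tef 0.15. Without fasted WT 4 and fed KO 4 these were, for Usp2, -0.11 in wild type fasting and 0.0307 for knockout in fasted liver, and 0.0767 for Tef. Their causes were not tested. Leaving out 1 array gave ranges across 0 in fasting for Hlf (-0.13 to 0.13 in wild type, -0.0127 to 0.0773 in knockout, -0.0381 to 0.0891 averaged), Rora in knockout (-0.0665 to 0.0120) and Usp2 in wild type (-0.12 to 0.61). For knockout in fed liver they were -0.17 to 0.19 (Tef), -0.14 to 0.11 (Hlf), -0.15 to 0.0863 (Bhlhe40) and -0.0286 to 0.0301 (Rora), and in fasted liver -0.11 to 0.11 (Hlf), -0.0027 to 0.29 (Bhlhe41) and -0.42 to 0.0307 (Usp2). For the difference of responses they were -0.28 to 0.0825 (Tef), -0.0798 to 0.17 (Hlf), -0.37 to 0.0407 (Bhlhe40) and -0.67 to 0.0204 (Bhlhe41).

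Over all genes limma called 1432 in wild type fasting, 1772 in knockout and 3440 averaged, and at an adjusted p below 0.01 these were 576, 879 and 1966. Wild type gave 829 with only the groups compared and 880 without fasted WT 4, and knockout 964 without the 3 arrays ending in 2. The filter at the 50th percentile dropped Bhlhe41, which lay below the median gene (5.77).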
